A study of Mus musculus with 9 samples.

Results

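The mitochondrial DNA of the mouse carries 37 genes, and all 37 had a row among the 54232 gene rows measured here. They were picked by annotation, as the rows whose Ensembl ID has a symbol starting with mt- in GENCODE release M21, and no measured value entered that choice. They comprise 13 messenger RNA genes for subunits of the respiratory chain and ATP synthase, 2 ribosomal RNA genes and 22 transfer RNA genes. In the genome build mm10, 28 lie on the plus strand of the mitochondrial chromosome and 9 on the minus strand. The samples were wild-type (WT) mouse cells labelled embryonic stem cells, taken through embryoid body differentiation, in which aggregated pluripotent cells form derivatives of the germ layers. All 9 libraries share that genotype, and the 3 groups are labelled by treatment as EBD2, EBD5 and EBD6, with 3 libraries each. The labels do not say what the number stands for, nor which line the cells came from. Poly(A) RNA was captured from Trizol-extracted RNA with oligo-dT beads, and sequencing used instruments of 2 models, with no record here of which library ran on which.

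Mitochondrial DNA is transcribed on both strands into long RNAs that span many genes, by the polymerase Polrmt with the factors Tfam and Tfb2m. Transfer RNAs lie between most of the other genes, and their excision by RNase P and by the RNase Z enzyme Elac2 releases the messenger and ribosomal RNAs. Most of the messenger RNAs then receive a short poly(A) tail from the polymerase Mtpap, and the protein Lrpprc with its partner Slirp protects them. The ribosomal RNAs carry only very short A tails and become the RNA core of the mitochondrial ribosome, which translates the messenger RNAs.

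Nuclear chromosomes carry copies of stretches of mitochondrial DNA, and a read from a copied stretch can match both places. Of the annotated nuclear genes, 16 matched a mitochondrial messenger RNA gene at 90% identity or more over at least 150 bases. A block of 7 of these lies at chr1:24611535-24616197 (mm10, minus strand). It matches bases 6390 to 11042 of the mitochondrial chromosome in the same order, with the spacing between neighbours kept to within 1 base. The following windows, read from the GENCODE M21 transcripts (mm10), show how close such copies are, each mitochondrial gene above its nuclear copy. The first pair is mt-Co3, for cytochrome c oxidase subunit III, at chrM:8907-8986 (plus strand) and Gm28437 at chr1:24613592-24613671 (minus strand), which have 0 differences over bases 301 to 380 of the gene.
mt-Co3: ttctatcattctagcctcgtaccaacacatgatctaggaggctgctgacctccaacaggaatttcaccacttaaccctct
Gm28437: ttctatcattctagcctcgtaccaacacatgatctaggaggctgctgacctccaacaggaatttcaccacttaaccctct
The second pair is the 3′ part of mt-Co1, for cytochrome c oxidase subunit I, at chrM:6628-6707 (plus strand) and Gm29216 at chr1:24615871-24615950 (minus strand), again with 0 differences.
mt-Co1: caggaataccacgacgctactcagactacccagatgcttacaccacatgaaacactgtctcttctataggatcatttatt
Gm29216: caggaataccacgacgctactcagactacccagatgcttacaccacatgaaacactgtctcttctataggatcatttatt
The next pair is the 5′ part of mt-Co1 at chrM:5628-5707 (plus strand) and a more diverged copy, Gm13340, at chr2:22589268-22589347 (minus strand). The capital marks the 1 difference, C313T, with positions counted from 1 at the 5′ end of the mitochondrial gene and the mitochondrial base first.
mt-Co1: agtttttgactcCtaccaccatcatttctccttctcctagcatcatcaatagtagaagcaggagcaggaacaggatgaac
Gm13340: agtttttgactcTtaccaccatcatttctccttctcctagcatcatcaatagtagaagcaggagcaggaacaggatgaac
The last pair is mt-Nd6, for a subunit of complex I, at chrM:13791-13870 (minus strand) and Gm11408 at chr4:80003635-80003714 (minus strand). Capitals mark the 6 differences, which are T216C, A231G, C255T, A258G, T274C and A276G.
mt-Nd6: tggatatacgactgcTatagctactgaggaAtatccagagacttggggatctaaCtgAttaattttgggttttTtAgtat
Gm11408: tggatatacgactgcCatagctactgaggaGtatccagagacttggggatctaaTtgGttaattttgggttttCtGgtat

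Counts were all but missing over one stretch of the mitochondrial DNA. The 6 messenger RNA genes from base 7013 to base 10173, namely mt-Co2, mt-Atp8, mt-Atp6, mt-Co3, mt-Nd3 and mt-Nd4l, held 40 counts in all over the 9 libraries, with at most 6 in a library. They encode 2 subunits of cytochrome c oxidase (mt-Co2 and mt-Co3), 2 of ATP synthase (mt-Atp8 and mt-Atp6) and 2 of complex I (mt-Nd3 and mt-Nd4l). The 9 genes on either side of the stretch, 7 messenger and both ribosomal RNA genes, held 8414 counts or more each. The highest of the 6 was mt-Co3 with 22 counts, of which EBD2 replicates 1 to 3 had 0, 2 and 1, EBD5 replicates had 2, 6 and 3, and EBD6 replicates had 0, 2 and 6. mt-Atp6 had 11 counts in all, mt-Co2 had 3, mt-Atp8 had 3 and mt-Nd3 had 1. mt-Nd4l had 0 counts, which allows a share of up to 4.79e-06% of all counts, counting error only. With so few counts none of the 6 could be compared between groups.

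Along the same stretch, nearly all of the sequence of these genes also occurs in a nuclear gene. The share of windows of 50 bases that were found letter for letter in an annotated nuclear transcript was 100% for mt-Co2, 99.5% for mt-Atp6, 99.9% for mt-Co3, 98.0% for mt-Nd3 and 98.8% for mt-Nd4l. It was 62.2% for mt-Nd4, 51.1% for mt-Co1, 8.19% for mt-Nd2, 7.61% for mt-Nd5 and 1.04% for mt-Rnr2. For mt-Rnr1, mt-Nd1, mt-Nd6 and mt-Cytb it was 0. mt-Atp8 stood apart with 0 shared windows at 3 counts, but most of it lies in the 233 bases between the annotated copies of mt-Co2 and mt-Atp6, and the chromosome 1 block has a gap of the same 233 bases there. The bases of that gap were not compared, since no sequence of the nuclear genome was used here. How reads that match several places were counted is not given in the sources used here, and the part of the copies in the missing counts was not tested.

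The nuclear copies did not hold the counts that these 6 genes lacked. Of the 16 copies 15 had a row in the table, with 301 counts in all over the 9 libraries and at most 93 in one copy. Gm28437, the copy of mt-Co3 shown above, had 16 counts. Gm29216, the copy of the end of mt-Co1, had the most, with 4, 10 and 5 counts in EBD2, 27, 1 and 26 in EBD5 and 10, 3 and 7 in EBD6. EBD5 replicate 2 thus had 1 count where its fellow libraries had 27 and 26. Gm13340 had 74 counts. Gm11408, the copy of mt-Nd6, had 10, of which 9 were in EBD2 replicate 3. These copies were picked for naming after their values were seen.

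**Figure D1:**
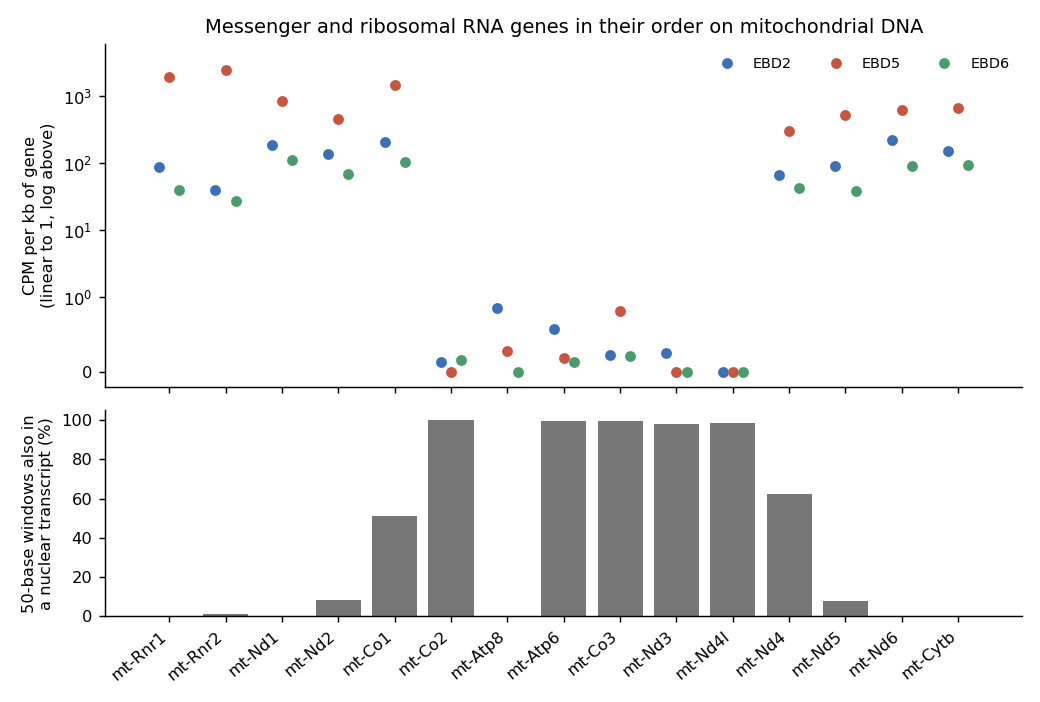
The upper panel plots the mean level of each messenger and ribosomal RNA gene in CPM per kb (linear to 1, log above) for EBD2, EBD5 and EBD6, with genes in their order on mitochondrial DNA; the lower panel plots the percent of 50-base windows found in a nuclear transcript. The 6 genes from mt-Co2 to mt-Nd4l lie near 0 in every group, and 5 of them have 98.0% to 100% shared windows.

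The transfer RNA genes, 59 to 75 bases long, held 4 counts in all. These were 1 count each for mt-Tt in EBD2 replicate 1, mt-Tq in EBD5 replicate 3, mt-Tp in EBD6 replicate 1 and mt-Tc in EBD6 replicate 3. The other 18 transfer RNA genes had 0 counts in all 9 libraries. The 22 are therefore described no further, and 9 of the 37 genes passed the filter on low counts.

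Before the groups are compared, the libraries of a group need comparing with each other, because mitochondrial genes differed between libraries that were otherwise alike. Libraries held 5453399 to 11703388 counts. EBD2 replicates 1 and 2 agree within sampling noise over 14334 genes (chi-square per gene 0.949, where 1 is expected from counting alone), and so do EBD6 replicates 2 and 3 over 16180 genes (1.01, p = 0.17 by a chi-square test). The libraries of such a pair were added together, so that n is 2 for EBD2, 3 for EBD5 and 2 for EBD6. The labels do not say whether replicates are separate cultures. A p-value between groups therefore reflects the spread among these samples alone, and that spread may be technical.

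Within both near-identical pairs, all 9 tested mitochondrial genes differed. Between EBD2 replicates 1 and 2, 40 of 14334 genes differed by an exact binomial test of their counts with Benjamini-Hochberg adjustment (0.279%), and 9 of the 40 were these. All 9 were higher in replicate 2, by 1.56-fold for mt-Nd4 to 1.93-fold for mt-Nd1. Between EBD6 replicates 2 and 3, 44 genes differed (0.272%), the 9 among them, and all were higher in replicate 3, by 1.44-fold for mt-Nd6 to 1.89-fold for mt-Co1. The median ratio over all genes was 0.998 in the EBD2 pair and 1.004 in the EBD6 pair. These tests compare 2 libraries by counting error only and say nothing of the conditions.

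In the other pairs the differences were of several kinds. EBD6 replicate 2 had 0.346 to 0.502 times the level of EBD6 replicate 1 in the 9 genes, and all 9 differed, in a pair where 2276 of the 15156 genes compared differed. EBD5 replicates 1 and 3 differed in mt-Rnr2 alone of the 9, by 1.06-fold, and in 0.254% of all genes compared. EBD5 replicate 2 differed from EBD5 replicate 1 in 7 of the 9 and in 4.70% of all genes compared. The direction was mixed: mt-Nd1 stood at 0.789 times and mt-Co1 at 0.81 times the level of replicate 1, while mt-Nd5 stood at 1.15 times and mt-Rnr2 at 1.12 times. EBD2 replicate 3 had 2.03 times the mt-Nd6 of EBD2 replicate 1 but 1.06 times its mt-Nd4.

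mt-Rnr2, the 16S RNA of the large mitochondrial ribosomal subunit (chrM:1094-2675, plus strand), showed the widest range. In CPM, which are counts scaled to library size, EBD2 replicates 1 to 3 had 39.2, 62.6 and 73.7, EBD5 had 3579, 4057 and 3850, and EBD6 had 53.5, 26.3 and 40.7. Every EBD5 library stood far above the other 6, and the EBD2 and EBD6 libraries overlapped. mt-Rnr1, the 12S RNA of the small subunit (chrM:70-1024, plus strand), had 61.2, 97.9 and 85.3 CPM in EBD2, 1877, 1707 and 1952 in EBD5, and 52.5, 17.7 and 30.6 in EBD6. Its 3 groups did not overlap. The 2 genes share no long run of A: the longest has 5 bases in mt-Rnr1 and 7 in mt-Rnr2, within the 3 to 8 of the 9 tested genes. All runs of that length within the windows below are in capitals, at chrM:675-744 and chrM:1458-1527 (mm10, plus strand), shown because these are the 2 genes with the largest differences between EBD5 and the other groups.
mt-Rnr1: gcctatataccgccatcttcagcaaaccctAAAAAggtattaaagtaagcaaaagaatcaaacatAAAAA
mt-Rnr2: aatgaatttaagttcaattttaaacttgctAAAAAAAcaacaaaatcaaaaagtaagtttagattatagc

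mt-Co1, the catalytic subunit of cytochrome c oxidase (chrM:5328-6872, plus strand), was the messenger RNA with the most counts. It had 258, 440 and 289 CPM in EBD2, 2399, 1971 and 2468 in EBD5, and 199, 81.8 and 155 in EBD6. The 3 groups did not overlap, and EBD5 replicate 2 was the lowest of its group. mt-Cytb, cytochrome b of complex III (chrM:14145-15288, plus strand), had 138, 227 and 161 CPM in EBD2, 728, 780 and 765 in EBD5, and 137, 55.1 and 100 in EBD6. Here too EBD5 stood above, while the lowest EBD2 library and the highest EBD6 library nearly touched.

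Complex I, which passes electrons from NADH to ubiquinone, takes the remaining 5 tested genes. mt-Nd1 (chrM:2751-3707, plus strand) had 130, 250 and 167 CPM in EBD2, 854, 683 and 886 in EBD5, and 135, 56.2 and 95.7 in EBD6. mt-Nd2 (chrM:3914-4951, plus strand) had 106, 181 and 143 CPM in EBD2, 492, 407 and 531 in EBD5, and 90.9, 37.7 and 61.1 in EBD6. In both genes EBD5 was apart from the rest, and for mt-Nd1 the EBD2 and EBD6 libraries overlapped. mt-Nd4 (chrM:10167-11544, plus strand) had 76.3, 119 and 83.2 CPM in EBD2, 415, 384 and 457 in EBD5, and 73.2, 31.5 and 53.8 in EBD6. mt-Nd5 (chrM:11742-13565, plus strand) had 118, 187 and 179 CPM in EBD2, 874, 1020 and 942 in EBD5, and 89.4, 35.2 and 61.4 in EBD6. Neither gene had overlapping groups, and EBD5 replicate 2 was the lowest of its group for mt-Nd4 and the highest for mt-Nd5. mt-Nd6 (chrM:13552-14070, minus strand), the sole messenger RNA gene of the opposite strand, had 67.1, 110 and 140 CPM in EBD2, 311, 317 and 337 in EBD5, and 64.1, 25.6 and 37.0 in EBD6. Its end overlaps that of mt-Nd5 by position, and the strand setting of the counting is not given in the sources used here. Its reads and those of RNA antisense to it cannot be told apart.

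**Figure D2:**
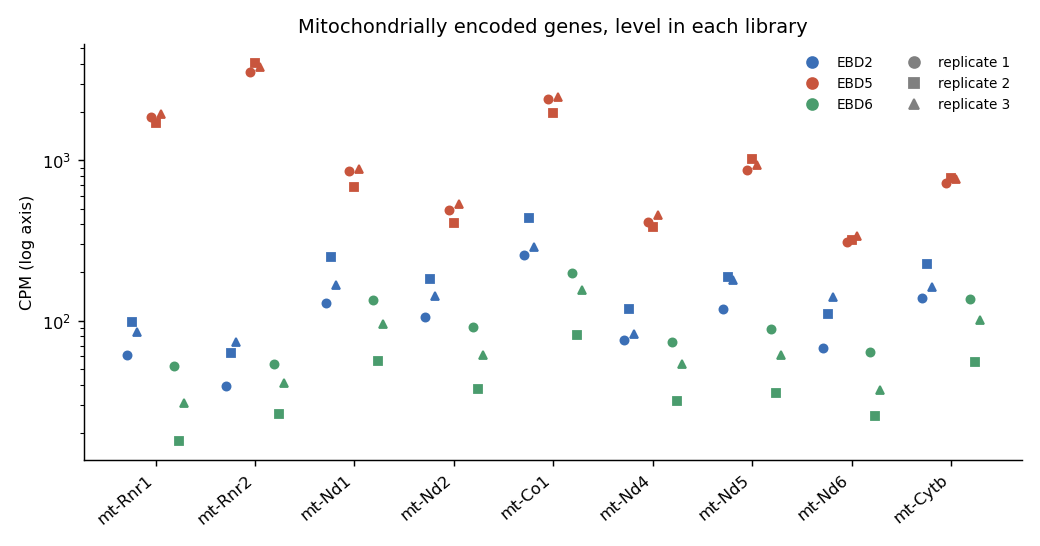
Each point is the level of 1 library in CPM (log axis) for the 9 tested mitochondrial genes, coloured by group, with the marker giving the replicate. The EBD5 points of every gene lie above all EBD2 and EBD6 points, and EBD6 replicate 2 is the lowest library for every gene.

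Compared per length, the order of the genes differed between groups. In EBD2 the highest mean level was that of mt-Nd6 at 221 ± 70.2 CPM per kb (SD, n = 2), followed by mt-Co1 at 207 ± 28.4 and mt-Nd1 at 187 ± 17.6, and these 3 lay within their spread of each other. mt-Cytb at 151 ± 13.5 and mt-Nd2 at 138 ± 0.574 came next, then mt-Nd5 at 91.1 ± 9.75, mt-Rnr1 at 86.5 ± 3.99, mt-Nd4 at 65.7 ± 7.59 and mt-Rnr2 at 39.5 ± 10.1. The neighbours mt-Cytb and mt-Nd2, and mt-Nd5 and mt-Rnr1, lay within their spread of each other. These SDs hide the spread within the summed pair, as do those of EBD6 below. The EBD2 libraries of mt-Nd2, for one, ran from 106 to 181 CPM. In EBD5 the order began with mt-Rnr2 at 2420 ± 152 CPM per kb (n = 3), mt-Rnr1 at 1932 ± 131 and mt-Co1 at 1475 ± 175. mt-Nd1 followed at 844 ± 114, mt-Cytb at 662 ± 23.4, mt-Nd6 at 620 ± 26.3, mt-Nd5 at 518 ± 39.8, mt-Nd2 at 459 ± 61.1 and mt-Nd4 at 304 ± 26.7. Per kb of whole gene, mt-Rnr2 thus went from last place in EBD2 to the first in EBD5. In EBD6 it was last again, at 27.6 ± 8.78 CPM per kb (n = 2), below mt-Nd5 at 38.0 ± 15.6, and mt-Nd1 was first at 111 ± 42.7, with most neighbours within their spread. Since a large part of mt-Nd4 and mt-Co1 is shared with nuclear copies, their place depends on the length used. A second length took only the windows of 50 bases that were not shared, with all counts of the gene kept. It assumes that no read from a shared window was counted, which was not tested. Per kb of such windows, mt-Co1 was first in EBD2 at 437 ± 60.1 CPM. mt-Nd4 stood at 180 ± 20.8 there, near mt-Nd1 at 197 ± 18.5. By this length mt-Co1 was also first in EBD5, at 3118 ± 369 against 2524 ± 158 for mt-Rnr2. It was first in EBD6 too, at 218 ± 76.1 against 117 ± 45.0 for mt-Nd1. The window length matters as well. With windows of 100 bases the shared part of mt-Co1 was 30.8% in place of 51.1%, and that of mt-Rnr2 was 0. The place of mt-Co1 above mt-Rnr2 in EBD5 does not hold for windows of 100 bases.

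EBD5 against EBD2 asks how transcript levels differ between these labelled treatments. All 9 tested mitochondrial genes were higher in EBD5, where 34.9% of the 16168 genes tested were called higher and 35.1% lower. The median log2 fold change of the 9 was 2.20, against -0.01 over all genes tested. For all 9 the 3 EBD5 libraries did not overlap the 3 EBD2 libraries, as was so for 77.8% of all genes tested. By edgeR's quasi-likelihood test with Benjamini-Hochberg adjustment, mt-Rnr2 was 62.6-fold higher (log2 5.97, SE 0.22, adjusted p = 3.24e-09) and mt-Rnr1 22.4-fold higher (log2 4.49, SE 0.24, adjusted p = 4.79e-08). Both ribosomal RNAs moved further than any of the messenger RNAs. Among those, mt-Co1 was 7.11-fold higher (log2 2.83, SE 0.20, edgeR adjusted p = 3.65e-07) and mt-Nd5 5.72-fold higher (log2 2.52, SE 0.19, edgeR adjusted p = 7.15e-07). mt-Nd4, mt-Nd1 and mt-Cytb lay close together, with log2 fold changes of 2.20, 2.17 and 2.13. The smallest were mt-Nd2 at 1.73 (SE 0.19) and mt-Nd6 at 1.52 (SE 0.23, edgeR adjusted p = 0.000138), the latter a 2.87-fold rise. The 9 genes were called higher when any 1 library was left out.

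Other genes of like base composition and length moved the same way, to a lesser degree. All 9 fell in 1 bin of 272 tested genes with a GC content of 28.3% to 40.9% and a length of 168 to 2046 bases, 76 of them protein-coding, whose median log2 fold change was 0.82. With that median removed, the log2 fold change was 5.15 for mt-Rnr2, 3.67 for mt-Rnr1, 2.01 for mt-Co1, 1.70 for mt-Nd5 and 0.91 for mt-Nd2, and mt-Nd6 was lowest at 0.70. The direction was kept for all 9, and no test goes with these values. The part of GC content and length in the differences was not tested.

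EBD6 against EBD5 showed all 9 lower in EBD6, where 33.3% of the genes tested were called lower and 36.9% higher. This comparison and the last share the EBD5 libraries. The groups did not overlap for all 9, as for 76.0% of all genes tested. The median log2 fold change of the 9 was -2.98, against 0.04 over all genes tested. mt-Rnr2 was 92.2-fold lower (log2 -6.53, SE 0.23, edgeR adjusted p = 7.19e-09) and mt-Rnr1 52.9-fold lower (log2 -5.73, SE 0.26, edgeR adjusted p = 2.64e-08). mt-Co1 was 14.6-fold and mt-Nd5 14.4-fold lower, with log2 fold changes of -3.87 and -3.85. The other 5 lay between -2.98 for mt-Nd1 and -2.84 for mt-Nd2, each with an edgeR adjusted p of 2.2e-06 or less. The bin of like GC content and length had a median of -1.24. With it removed, mt-Rnr2 stood at -5.28, mt-Rnr1 at -4.48, mt-Co1 at -2.62, mt-Nd5 at -2.61 and the other 5 between -1.74 and -1.60.

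EBD6 against EBD2 gave smaller differences, and here the spread within groups matters. All 9 genes were lower in EBD6, where 32.3% of the genes tested were called lower and 33.7% higher. The median log2 fold change of the 9 was -1.04, against 0.01 over all genes tested. For 7 of the 9 the groups did not overlap, as for 74.3% of all genes tested, and mt-Rnr2 and mt-Nd1 did overlap. The furthest were mt-Nd6, 2.58-fold lower (log2 -1.37, SE 0.27, edgeR adjusted p = 0.00102), mt-Nd5, 2.52-fold lower (log2 -1.33, SE 0.21, edgeR adjusted p = 0.000198), and mt-Rnr1, 2.36-fold lower (log2 -1.24, SE 0.25, edgeR adjusted p = 0.0012). mt-Nd2 and mt-Co1 were 2.16-fold and 2.05-fold lower. For comparison, EBD6 replicate 2 stood at 0.346 to 0.502 times EBD6 replicate 1 in the same genes. mt-Nd1, mt-Nd4 and mt-Cytb were 1.76-fold, 1.67-fold and 1.66-fold lower, and mt-Rnr2 1.47-fold (log2 -0.56, SE 0.21, edgeR adjusted p = 0.0374). Against a fold of 1.5, 5 of the 9 were called. Without EBD2 replicate 2, the higher library of its pair, 7 were called, and the edgeR adjusted p was 0.173 for mt-Rnr2 and 0.0567 for mt-Nd1. The bin of like GC content and length had a median of -0.60. With it removed, mt-Nd6 stood at -0.77, mt-Nd5 at -0.73, mt-Rnr1 at -0.64, mt-Nd2 at -0.51, mt-Co1 at -0.44, mt-Nd1 at -0.22 and mt-Nd4 and mt-Cytb at -0.13, and mt-Rnr2 turned to 0.04.

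**Figure D3:**
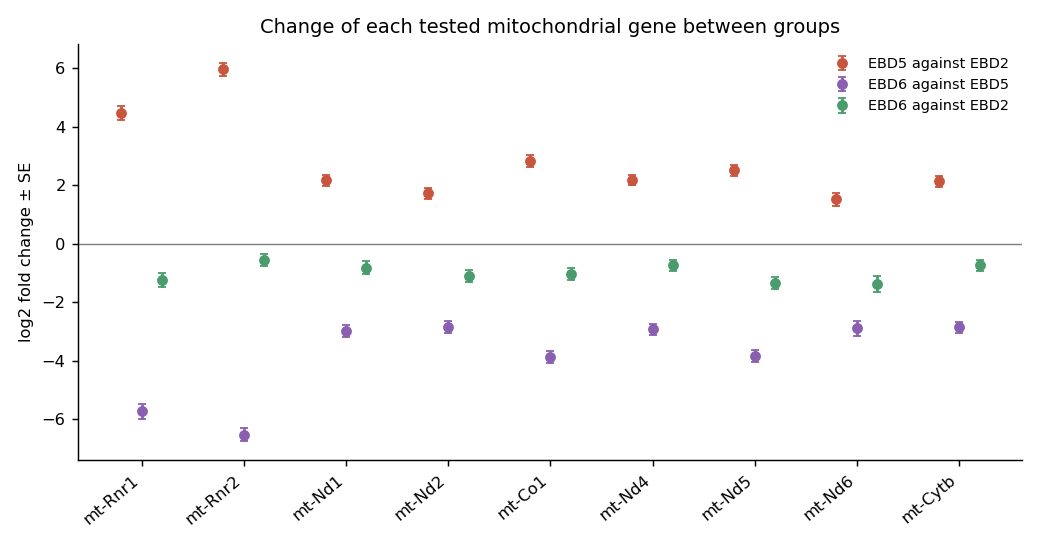
Log2 fold change with its SE for each tested mitochondrial gene in the 3 comparisons, from edgeR. mt-Rnr2 and mt-Rnr1 lie furthest from 0 in both comparisons with EBD5, while all 9 genes lie between -1.37 and -0.56 for EBD6 against EBD2.

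The make-up of the mitochondrial counts differed between EBD5 and the other groups, and a share within a library does not depend on its depth or scaling. The ratio of ribosomal to messenger RNA counts was 0.106 to 0.137 in the EBD2 libraries, 0.898 to 1.04 in EBD5 and 0.126 to 0.136 in EBD6. mt-Rnr2 took 3.74% to 5.58% of the counts of the 9 genes in EBD2, 31.0% to 35.8% in EBD5 and 5.99% to 7.15% in EBD6. Within the near-identical pairs the make-up changed little although the levels did: mt-Co1 took 26.0% and 26.3% in EBD2 replicates 1 and 2, and 22.3% and 24.3% in EBD6 replicates 2 and 3. Per base, mt-Rnr2 had 0.387, 0.386 and 0.522 times the counts of mt-Rnr1 in EBD2, 1.15, 1.43 and 1.19 times in EBD5, and 0.616, 0.893 and 0.804 times in EBD6. The order of these 2 RNAs was thus turned in all 3 EBD5 libraries alone.

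Among the messenger RNAs the shift was smaller but present in every EBD5 library. As a share of messenger RNA counts, mt-Co1 took 24.8% to 29.1% in EBD2, 35.4% to 39.5% in EBD5 and 25.2% to 27.4% in EBD6. mt-Nd2 took 11.8% to 12.3%, 7.32% to 8.32% and 10.8% to 11.7%. In EBD5 the share of mt-Co1 was thus higher and that of mt-Nd2 lower than in every other library. mt-Nd6 took 7.52%, 7.25% and 12.1% in EBD2 replicates 1 to 3, against 5.11% to 5.71% in EBD5 and 6.55% to 8.13% in EBD6, so that EBD2 replicate 3 stood apart. Per base, mt-Nd6 had 1.99, 2.06 and 2.76 times the counts of mt-Nd5, its neighbour on the other strand, in EBD2, 1.25, 1.09 and 1.26 times in EBD5, and 2.52, 2.56 and 2.11 times in EBD6. EBD5 replicate 2 also had a make-up of its own, with 1.87 times as much mt-Co1 as mt-Cytb per base where replicates 1 and 3 had 2.44 and 2.39.

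**Figure D4:**
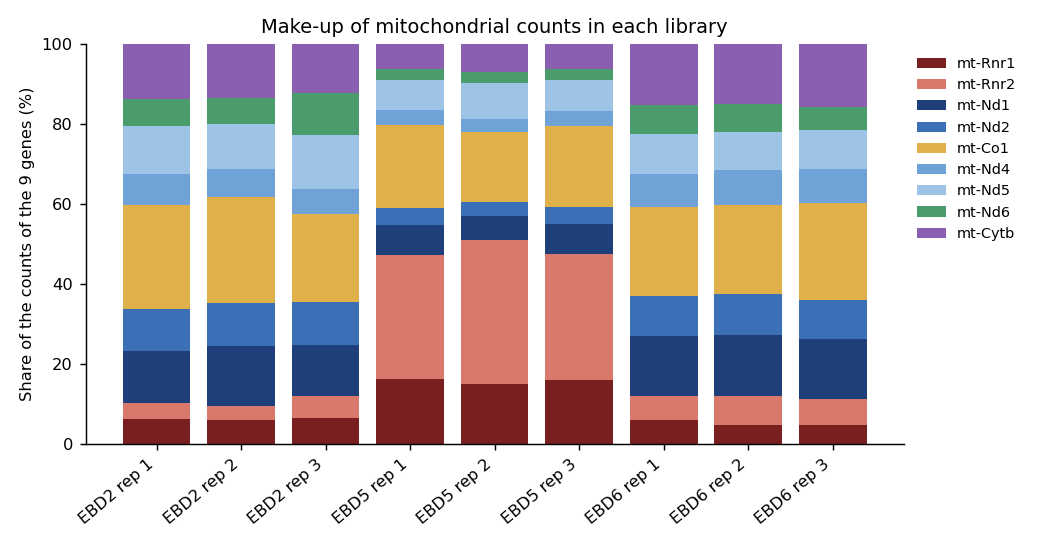
Stacked bars give the percent of the counts of the 9 tested mitochondrial genes that each gene took, 1 bar per library. mt-Rnr2 takes 31.0% to 35.8% in the EBD5 libraries and 3.74% to 7.15% in the other 6.

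Set against the counts of all genes, mitochondrial messenger RNA took 0.122 ± 0.00538% in EBD2 (SD, n = 2), 0.568 ± 0.0399% in EBD5 (n = 3) and 0.0649 ± 0.0247% in EBD6 (n = 2). Nearly all of it came from 7 of the 13 genes, since the other 6 held 40 counts in all. Whether the share misses RNA of those 6, or of the stretches that mt-Co1 and mt-Nd4 share with nuclear copies, was not tested. The SD of EBD2 hides the spread within its summed pair, since its libraries ran from 0.0933% to 0.158%. Other classes that an oligo-dT library holds in small amounts were also higher in EBD5. Nuclear ribosomal RNA genes, of which the single gene CT010467.1 made up nearly all, took 0.773% there against 0.0196% in EBD2 and 0.0228% in EBD6. CT010467.1, looked up after the values were seen, took 0.773%, 0.0195% and 0.0226% in EBD5, EBD2 and EBD6. Likewise, replication-dependent histone genes, whose messages mostly lack a poly(A) tail, took 0.0449% against 0.0112% and 0.00935%. Processed pseudogenes took 1.13% against 0.307% and 0.201%. RNA of cell type markers also differed between the groups. The 6 visceral endoderm markers summed to 11.5 to 12.5 CPM in EBD2, 1478 to 1512 in EBD5 and 778 to 802 in EBD6. In EBD2 4 of the 6 had means under 1 CPM with none at 0. The 5 pluripotency markers summed to 1063 to 1211, 782 to 852 and 719 to 813 CPM, with none of the 5 at 0 in any group. The 5 primitive or parietal endoderm markers had the same order as the visceral endoderm markers. They summed to 36.3 to 37.4 CPM in EBD2, 1228 to 1286 in EBD5 and 1011 to 1022 in EBD6. The remaining lists had other orders. The 5 mesoderm markers summed to 5.79 to 7.44, 12.0 to 14.3 and 113 to 118 CPM. The 4 neuroectoderm markers summed to 142 to 151, 65.5 to 73.4 and 166 to 172 CPM. The part of capture, of RNA classes and of cell types in the mitochondrial levels was not tested. In bulk samples, fewer cells of a type and less RNA per cell cannot be told apart.

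**Figure D5:**
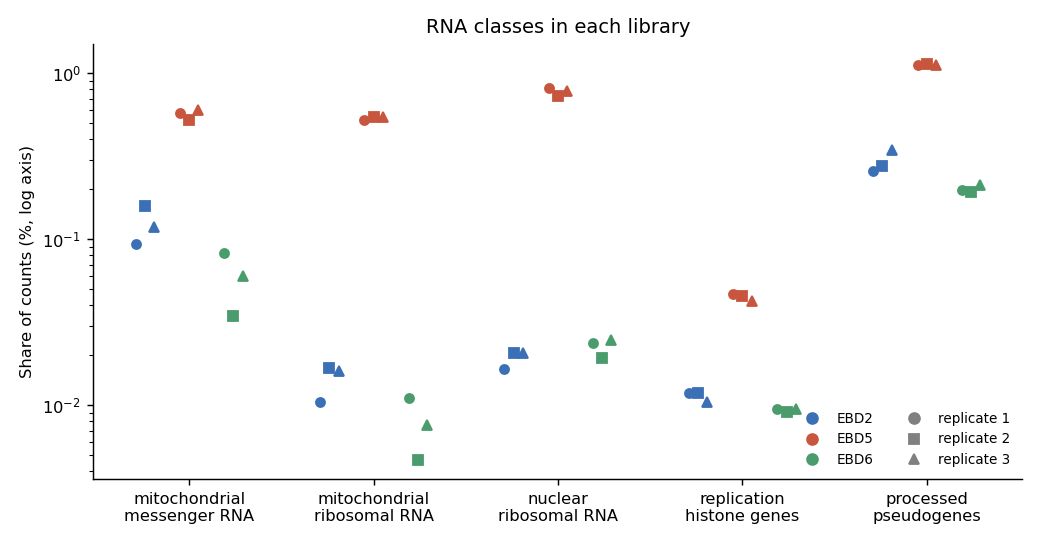
Each point is the percent of counts (log axis) that an RNA class took in 1 library, coloured by group, with the marker giving the replicate. All 5 classes shown are highest in the 3 EBD5 libraries.

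The nuclear genes that make, process and use mitochondrial RNA moved in both directions. In EBD5 against EBD2, 34.9% of all genes tested were called higher and 35.1% lower. Of 11 genes listed for the transcription of mitochondrial DNA, 1 rose and 4 fell, with a median log2 fold change of -0.16. The gene that rose was Tfb2m, which opens the promoter for the polymerase, from 7.76 ± 0.193 to 15.6 ± 1.83 CPM (log2 1.02, SE 0.16, edgeR adjusted p = 0.000148). Polrmt, the polymerase, fell from 45.8 ± 4.48 to 21.9 ± 1.96 CPM (log2 -1.08, SE 0.13, edgeR adjusted p = 1.84e-05, and -0.40 with the median of its GC and length bin removed). Tefm, the elongation factor, fell from 54.7 ± 2.87 to 36.5 ± 5.15 CPM. Tfam, which packages mitochondrial DNA and activates its promoters, had 112 ± 6.74 and 118 ± 6.85 CPM, a difference that missed the threshold (log2 0.09, edgeR adjusted p = 0.278, and -0.08 with its bin's median removed). It lies outside the naming rule and was picked after its value was seen. In EBD6 against EBD5, Polrmt rose to 47.1 ± 7.77 CPM (log2 1.14, or 0.20 with its bin's median removed) and Tfb2m fell to 6.24 ± 0.139 CPM (log2 -1.32). Of the 11, 3 rose and 4 fell in that comparison, beside 36.9% higher and 33.3% lower over all genes tested.

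Of 10 genes for replication of mitochondrial DNA, 3 rose and 5 fell in EBD5 against EBD2. Beside this list and the next 2, 34.9% of all genes tested were called higher and 35.1% lower. Polg, the catalytic subunit of the DNA polymerase, rose from 106 ± 5.49 to 192 ± 3.31 CPM and stood at 207 ± 6.95 in EBD6, while Twnk, the helicase, fell from 98.5 ± 2.05 to 74.8 ± 2.53. Of 14 tested genes for RNA processing and polyadenylation 3 rose and 5 fell. Elac2, which cuts the 3′ ends of transfer RNAs, fell from 84.7 ± 3.06 to 41.1 ± 3.20 CPM (log2 -1.04, SE 0.08, edgeR adjusted p = 1.19e-06), and Lrpprc from 214 ± 14.0 to 169 ± 7.73. Elac2 rose back to 82.2 ± 6.26 CPM in EBD6. Of the 5 genes for decay of mitochondrial RNA 1 rose and 4 fell. Pnpt1, the exonuclease of the degradosome, fell from 135 ± 4.56 to 58.4 ± 6.11 CPM (log2 -1.21, SE 0.09, edgeR adjusted p = 6.78e-07), and Grsf1, an RNA-binding protein that works with it, rose from 149 ± 2.64 to 198 ± 7.08.

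The protein partners of the 2 ribosomal RNAs were divided. Of 78 mitochondrial ribosomal protein genes, 18 rose and 30 fell in EBD5 against EBD2 (median log2 -0.17), 30 rose and 18 fell in EBD6 against EBD5 (0.16), and 21 rose and 20 fell in EBD6 against EBD2 (-0.05). In EBD5, Mrps15 fell from 58.2 ± 5.78 to 23.6 ± 2.59 CPM and Mrps27 from 108 ± 0.699 to 54.0 ± 0.945, and Mrpl19 rose from 66.6 ± 2.93 to 108 ± 5.27. Mrps33 rose furthest of the 78, from 7.98 ± 0.382 to 31.9 ± 1.81 CPM (log2 2.01), and stood at 8.54 ± 1.32 in EBD6. Of 11 translation factors 0 rose and 5 fell. Among the 5 were Gfm1 (152 ± 10.3 to 90.3 ± 9.41 CPM) and Gfm2 (114 ± 2.29 to 68.0 ± 1.80). Of 21 nuclear-encoded partners in the respiratory complexes and ATP synthase 6 rose and 6 fell (median log2 -0.01). Ndufv1 of complex I fell from 93.5 ± 5.58 to 55.2 ± 2.90 CPM and Uqcrc1 of complex III from 155 ± 14.9 to 99.4 ± 8.07, and Cox4i1 of cytochrome c oxidase rose from 161 ± 11.9 to 234 ± 11.1 (log2 0.54, or 1.24 with its bin's median removed). Cox7c, of the same complex as Cox4i1, rose furthest of the 21, from 49.6 ± 1.40 to 163 ± 6.93 CPM (log2 1.72). It stood at 36.1 ± 5.10 in EBD6. Of 8 tested regulators of mitochondrial biogenesis 1 rose and 5 fell. Esrra, a nuclear receptor of energy metabolism, fell from 15.4 ± 0.404 to 9.43 ± 0.50 CPM and rose to 31.1 ± 4.96 in EBD6. Over all genes tested, 34.9% were called higher and 35.1% lower in EBD5 against EBD2, 36.9% and 33.3% in EBD6 against EBD5, and 33.7% and 32.3% in EBD6 against EBD2. No list was tested as a whole.

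In EBD6 against EBD2, where all 9 mitochondrial genes were lower, 1 of the 11 transcription genes rose and 4 fell. The gene that rose was Mrpl12 (log2 0.39), which is also counted among the mitochondrial ribosomal protein genes. Mterf1a, a member of the transcription termination factor family, fell from 12.0 ± 0.601 to 3.56 ± 0.819 CPM (log2 -1.66, SE 0.20, edgeR adjusted p = 2.36e-05), and Tefm fell to 30.8 ± 1.91. Of the replication genes 1 rose, which was Polg (log2 0.96), and 7 fell. Over all genes tested, 33.7% were called higher and 32.3% lower in that comparison.

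Over the 9 libraries, the protein-coding nuclear genes whose log2 CPM followed the sum of mitochondrial messenger RNA most closely, among 10530 with at least 10 CPM, were Piga, Prdx1, Alg6, Fmr1 and Zfp788, with Pearson correlations of 0.988, 0.988, 0.987, 0.984 and 0.984. The 9 points share their group, their library and its depth, and fall into 3 groups, so these values only describe likeness. Prdx1, a peroxide-reducing enzyme, stood at 257 ± 5.04 CPM in EBD2, 523 ± 18.1 in EBD5 and 205 ± 33.8 in EBD6, a smaller fold between its lowest and highest group than for any tested mitochondrial gene.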

How the data were processed

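Poly(A) RNA of 9 libraries in 3 labelled groups was analysed. The authors deposited expected counts per gene (estimates, so not always whole), with no scaling for depth or length; 90.9% to 94.6% of values per library were whole. The build mm10, STAR 2.7.10a and RSEM 1.3.30 are named per the submitters' processing notes, beside cutadapt 1.18, DESeq2 1.38.3 and edgeR 3.40.2, with no role or order stated. A second deposited table repeated EBD6 with identical values in all 54233 rows. All expected counts were rounded before testing; 1 row that names no gene (at most 0.0157% of a library) was left out. GENCODE M21 annotated 54079 of the IDs (99.7%).

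Near-identical libraries were summed, leaving 7 samples. Genes passing filterByExpr (16168) had TMM factors applied; the quasi-likelihood test of edgeR 4.0.16 was run in R 4.3.3, all groups in one fit, with Benjamini-Hochberg adjustment, calls at an adjusted p under 0.05, and 4 residual degrees of freedom. The SE is the log2 fold change divided by the square root of F. Nuclear copies were found with blastn 2.17.0. Pairs of libraries were compared over genes with at least 20 counts. On simulated data with 2-fold changes, 196 of 200 changed genes were recovered for EBD5 against EBD2 and 198 of 200 for EBD6 against EBD5, among 15362 genes, with 15 and 13 calls among unchanged genes. No gene was made to differ between EBD6 and EBD2, and 0 were called there. Every gene was simulated with the same spread (a biological coefficient of variation of 6.7%). These figures therefore do not give the error rate for genes that vary more, such as the mitochondrial genes within pairs. Alternatives included DESeq2 1.42.0 and limma-voom 3.58.1.

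The members, lists and tests were chosen with earlier results of these data known. Named were all messenger and ribosomal RNA genes of mitochondrial DNA, any transfer RNA gene of at least 10 counts (none reached it; the 4 with a count are named beside the rule), any nuclear copy of at least 100 counts (none), up to 4 genes per list, comparison and direction with the largest significant change, of which the text names some, and the 5 nuclear genes most alike. The labels record no molecular identifiers, so the limit given for a count of 0 and the tests between single libraries reflect counting error alone.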

Additional observations from a re-analysis of the deposited data

How the results depend on the processing

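In EBD5 against EBD2 and in EBD6 against EBD5, all 9 tested mitochondrial genes were called in the same direction under every alternative with a test and when any 1 library was left out. In EBD6 against EBD2 the 9 called lower became 5 against a fold of 1.5 and 7 to 9 when 1 library was left out. mt-Rnr2 lost its call there with DESeq2's Wald test (DESeq2 adjusted p = 0.148), with EBD5 replicates 1 and 3 as 1 sample (edgeR adjusted p = 0.0528), and without EBD2 replicate 2, EBD2 replicate 3, EBD5 replicate 3 or EBD6 replicate 2 (edgeR adjusted p of 0.173, 0.259, 0.0616 and 0.0697). With the medians of GC and length bins removed, mt-Rnr2 turned from a log2 fold change of -0.56 to 0.043 in EBD6 against EBD2. Tfam turned from 0.09 to -0.082 in EBD5 against EBD2. A further 23 values of named nuclear genes moved by this step without a change of sign. The alternatives were not read out for Cox7c, Mrps33 and Mrpl12. Against a fold of 1.5, 8 calls of named nuclear genes were lost: Tefm, Twnk, Lrpprc, Grsf1, Esrra, Cox4i1 and Uqcrc1 in EBD5 against EBD2 and Pnpt1 in EBD6 against EBD5. Against a fold of 1.5, the genes called over all genes were 5606 in place of 11319 (EBD5 against EBD2), 5317 in place of 11356 (EBD6 against EBD5) and 4918 in place of 10684 (EBD6 against EBD2); with 1 library left out they were 10238 to 12111, 10281 to 11596 and 9502 to 11011. Leaving out 1 library gave a mitochondrial messenger RNA share of 0.106% to 0.138% in EBD2, 0.552% to 0.590% in EBD5 and 0.0474% to 0.0713% in EBD6, and a ribosomal RNA share of 0.0133% to 0.0165%, 0.532% to 0.544% and 0.00616% to 0.00934%. As a share of nuclear protein-coding and mitochondrial counts, mitochondrial ribosomal RNA in EBD5 was 0.562% in place of 0.536%. Where no value shows it, the cause was not tested.

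Same-numbered libraries of different groups did not deviate together (correlations of -0.0871 to 0.0467, against -0.0843 to 0.101 for other pairs). With 3 libraries a group, such a check cannot tell whether same-numbered libraries had a common origin, which the labels do not give. With 9 separate libraries and the replicate number as a block, 11512, 11678 and 11452 genes were called over all genes in the 3 comparisons, and all 9 mitochondrial genes kept their calls. The 6 messenger RNA genes from mt-Co2 to mt-Nd4l and the transfer RNA genes had too few counts to be compared.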
